A study of Homo sapiens with 2 samples.

Results

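The forkhead genes encode transcription factors that share the forkhead (winged helix) DNA-binding domain. The genes described here are the protein-coding genes of the hg19 GENCODE annotation whose symbol is FOX, 1 letter from A to S and a number, and there were 45 of them among 20163 protein-coding genes. The data were peaks of CUT&Tag, in which an antibody directs a transposase to tag the DNA near a protein, made with a Flag antibody in HCT116, a human colorectal carcinoma cell line. One library came from cells carrying 3×Flag-tagged wild-type TRPS1 (TRPS1-WT) and 1 from cells carrying the tagged R544Q mutant (TRPS1-MT). Both lines were made with lentivirus and selected with puromycin, so the tagged protein was added to what the cells already had, and no library of cells without the tag was analysed here. Since each condition had 1 library, the spread between replicates is unknown and no test was possible. What follows describes the 2 libraries, and the 95% intervals hold for counting error alone.

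TRPS1 is a nuclear protein with a GATA-type zinc finger, known mainly as a repressor of transcription. Forkhead factors act in many settings: FOXA factors open chromatin in endoderm, FOXF and FOXL1 shape the mesenchyme under the gut epithelium, FOXO factors are held out of the nucleus by insulin and AKT signalling, and FOXM1 drives genes of mitosis. Many of their genes sit in CpG islands, and several lie in clusters. The forkhead genes had a median length of 6.03 kb against 27.2 kb for all protein-coding genes, and a median of 2 annotated transcription start sites (TSSs) against 5. A promoter CpG ratio (observed over expected CpG) of at least 0.6 was present at 35 of the 45 (77.8%), against 41% of protein-coding genes.

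The TRPS1-WT list held 173304 peaks on chromosomes 1 to 22, X and Y, and the TRPS1-MT list 325573. Tags here are the sequenced fragments piled up at a peak's summit, recovered from the fold enrichment over local background and the −log10 p of the authors' peak caller. A median of 14 tags lay at the summits of TRPS1-WT and 17 at those of TRPS1-MT, and the narrowest peaks were 168 bp and 280 bp wide, so tags are not on 1 scale across the libraries. Where peaks of the lists overlapped, tags in TRPS1-MT were a median of 1.33 times those in TRPS1-WT.

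A promoter peak was a peak whose midpoint lay from 2 kb before to 1 kb after any annotated TSS. In TRPS1-WT, 27 of the 45 forkhead genes had one (60%, 45.5 to 73), beside 67.4% of all protein-coding genes. In TRPS1-MT, 32 had one (71.1%, 56.6 to 82.3), beside 76.4%. Both lists held a promoter peak at 23 forkhead genes (51.1%, 37 to 65), beside 62.6% of all genes. Only the TRPS1-WT list held one at 4 (FOXD3, FOXE1, FOXO1 and FOXO4), beside 4.88% of all genes, and only the TRPS1-MT list at 9 (FOXA2, FOXB2, FOXC2, FOXE3, FOXH1, FOXI3, FOXP3, FOXR2 and FOXS1), beside 13.8%. Neither list held one at 9 (20%, 10.9 to 33.8), beside 18.7% of all genes. Among these 9 were FOXB1, FOXD4, FOXF1, FOXF2, FOXI1, FOXL3, FOXN1 and FOXR1. The intervals of the forkhead shares in each list and in both included the share of all protein-coding genes. At FOXD3, FOXO1 and FOXO4, TRPS1-MT peaks reached into the promoter with their midpoints outside it. When any overlap with the promoter counted, 28 forkhead genes (62.2%) had a TRPS1-WT peak, 35 (77.8%) a TRPS1-MT peak and 27 (60%) both. The shares of all protein-coding genes were then 68.3%, 77.8% and 63.9%. The order of the lists depended on their length and on the promoter's width. With the TRPS1-MT list cut to the length of the other, 27 genes had a TRPS1-WT and 25 a TRPS1-MT promoter peak. With a promoter from 1 kb before to 1 kb after the TSS the counts were 25 and 24, and the TRPS1-MT share (53.3%, 39.1 to 67.1) ended below the 71.3% of all genes.

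Set beside genes with a like promoter composition, the forkhead genes carried promoter peaks at a lower share. Of the 35 with a CpG ratio of at least 0.6, 23 had a TRPS1-WT promoter peak (65.7%, 49.2 to 79.2), beside 81.9% of the 8266 protein-coding genes of that ratio. In TRPS1-MT the count was 25 of 35 (71.4%, 54.9 to 83.7), beside 88.2%. Both of these intervals ended below the share of the CpG-rich genes. The bar plot of genes with a promoter peak shows these 4 pairs of shares. The forkhead genes have fewer annotated TSSs, and when only the canonical TSS of each gene was used the CpG-rich forkhead genes stood at 51.4% in TRPS1-WT and 60% in TRPS1-MT, beside 71.2% and 76.9%. Against all protein-coding genes with a promoter peak, of any CpG ratio, the summits were lower. The strongest promoter peak of a forkhead gene held a median of 27 tags in TRPS1-WT and 25.5 in TRPS1-MT, beside 38 and 47. That peak is the strongest over all TSSs of a gene, and forkhead genes have fewer TSSs. What part this had was not tested.

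**Figure D1:**
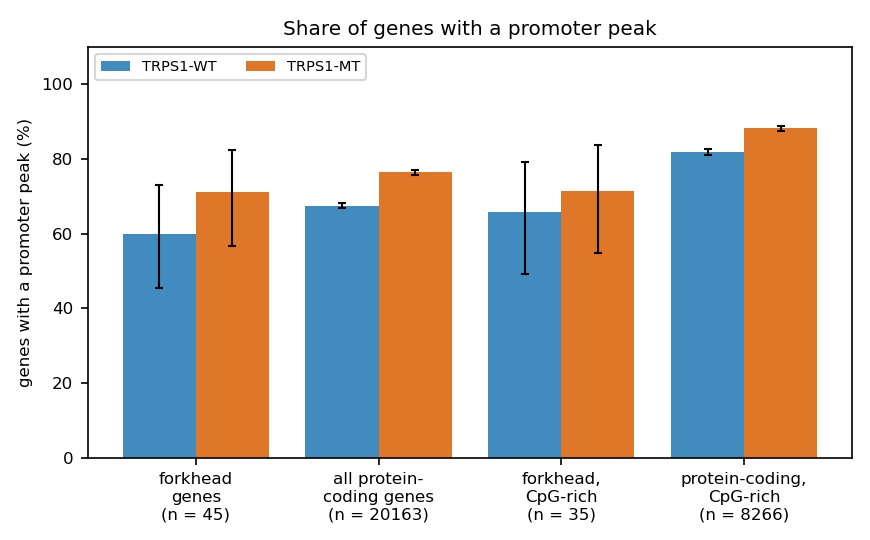
Percent of genes with a promoter peak in the TRPS1-WT (blue) and TRPS1-MT (orange) lists, 1 library each, for the forkhead genes, all protein-coding genes, and the genes of each kind with a promoter CpG ratio of at least 0.6; error bars are 95% Wilson intervals of counting error. The 35 CpG-rich forkhead genes stand at 65.7% and 71.4%, below the 81.9% and 88.2% of CpG-rich protein-coding genes.

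Among the FOXA genes, which mark endoderm and the gut, FOXA1 and FOXA3 had promoter peaks in both lists and FOXA2 in TRPS1-MT alone. FOXA1 held 23 tags in TRPS1-WT at chr14:38065049-38065411 (fold 7.27, −log10 p 16.1, summit at −813 bp from the canonical TSS) and 22 in TRPS1-MT at chr14:38065025-38065304 (fold 8.31, −log10 p 17.5, −746 bp). These peaks overlapped, and their tag ratio of TRPS1-MT to TRPS1-WT was 0.957 (0.508 to 1.80). The TSS of TTC6 lies 380 bp from that of FOXA1, so the peaks fell in the promoters of both genes. FOXA3 held 74 tags in TRPS1-WT at chr19:46366420-46366832 (fold 12.1, −log10 p 58.0) and 140 in TRPS1-MT at chr19:46366309-46366758 (fold 16.5, −log10 p 123). Its ratio was 1.89 (1.42 to 2.54), and the peak also lay in the promoter of the neighbouring SYMPK gene. FOXA2 held 21 tags in TRPS1-MT at chr20:22567620-22567899 (fold 7.95, −log10 p 16.3), at −2506 bp from its canonical TSS and near another one. Its only TRPS1-WT peak within 10 kb held 12 tags, at −6268 bp.

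The summit of the FOXA1 promoter peak in TRPS1-WT is shown because it holds an AP-1 word, in capitals, in a promoter shared with TTC6 (hg19 chr14:38065214-38065327, plus strand).
FOXA1 promoter, TRPS1-WT summit: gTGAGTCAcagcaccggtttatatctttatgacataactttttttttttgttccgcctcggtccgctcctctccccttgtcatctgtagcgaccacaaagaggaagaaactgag

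FOXL1, a gene of the mesenchyme that lies under the gut epithelium, had the strongest promoter peak of all 45 in both lists. It held 331 tags in TRPS1-WT (296 to 369) at chr16:86609338-86610117, with a fold of 19.2 and −log10 p of 299. In TRPS1-MT it held 520 (476 to 567) at chr16:86609303-86610194, with a fold of 17.0 and −log10 p of 437. The ratio was 1.57 (1.37 to 1.81), and 99.1% of TRPS1-WT and 99.7% of TRPS1-MT peaks ranked below. The summits lay at −2510 and −2430 bp from the canonical TSS, next to an upstream TSS of the same gene. A second peak past the 3′ end of FOXL1, at 6796 bp from the TSS, held 110 tags in TRPS1-WT and 310 at 6843 bp in TRPS1-MT. FOXC2, a gene of vessels and lymphatics, starts 11720 bp upstream in the same cluster and had a promoter peak in TRPS1-MT alone, with 18 tags at chr16:86598686-86598965 (fold 5.27, −log10 p 10.3). FOXF1, the third gene of that cluster, had no promoter peak in either list, with 3 and 5 peaks within 10 kb.

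The FOXL1 summit in TRPS1-WT is shown because it was the strongest of the family. It held none of the 3 kinds of word that were searched, and 7 CpG dinucleotides (hg19 chr16:86609585-86609705, plus strand).
FOXL1 promoter, TRPS1-WT summit: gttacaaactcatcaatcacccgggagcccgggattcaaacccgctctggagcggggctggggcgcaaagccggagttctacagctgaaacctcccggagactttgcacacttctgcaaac

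FOXC1, which acts in vessels and in the eye and skeleton, had the largest ratio between the lists in number of peaks among the members with a peak in each, and was singled out after its values were seen. Within 10 kb of its body the TRPS1-WT list held 1 peak and the TRPS1-MT list 9. That was 4.17 peaks per 100 kb in TRPS1-WT, above 19.1% of protein-coding genes, and 37.5 in TRPS1-MT, above 99.9%. The single TRPS1-WT peak lay in the promoter, with 13 tags at −131 bp, and a TRPS1-MT peak with 12 tags at −240 bp overlapped it. The other 8 TRPS1-MT peaks were spread over both flanks and the gene, with 11 to 26 tags, and none overlapped a TRPS1-WT peak. With only peaks of −log10 p of at least 10, 1 and 4 peaks were left, and the count was also 4 when the TRPS1-MT list was cut to the length of the other. FOXQ1 and FOXF2 lie upstream on the same chromosome arm. FOXQ1 had 1 and 5 peaks, with a promoter peak of 27 tags in TRPS1-WT and a strongest one of 21 tags in TRPS1-MT that lay apart from it. A weaker TRPS1-MT promoter peak of FOXQ1, with 18 tags, overlapped the TRPS1-WT one. FOXF2 had 1 and 2 peaks with none in the promoter. FOXS1 had a promoter peak in TRPS1-MT alone, with 27 tags at chr20:30434585-30434864 (fold 6.96, −log10 p 17.3).

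**Figure D2:**
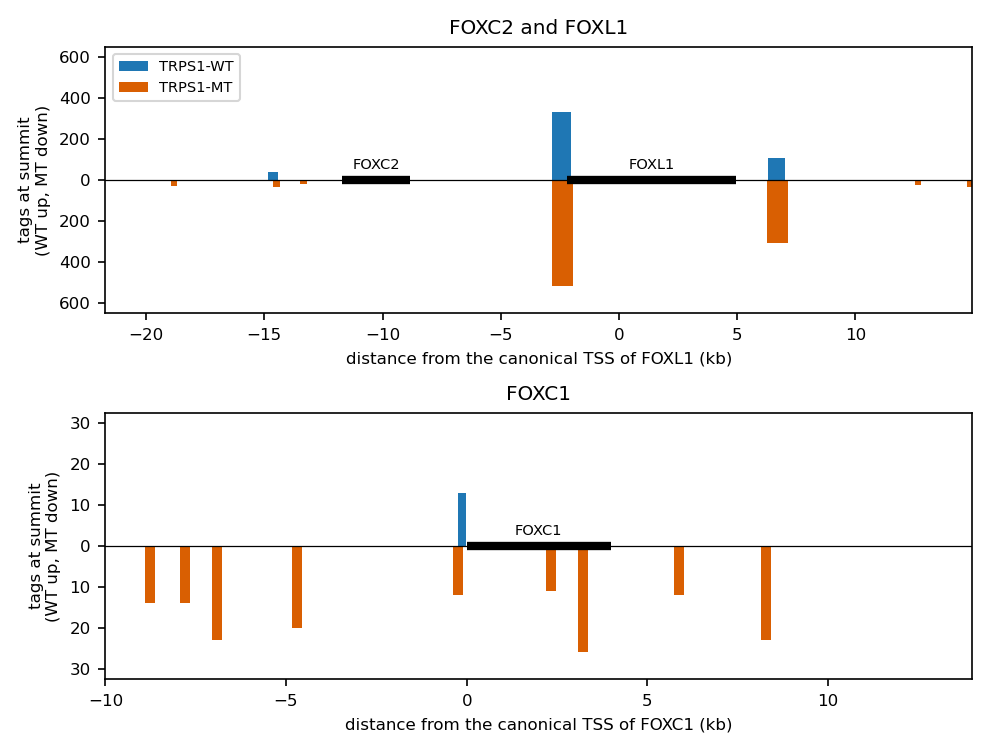
Peaks around FOXC2 and FOXL1 (top) and FOXC1 (bottom) by distance from the canonical TSS of FOXL1 or FOXC1 in kb; bars are peaks drawn at their width, upward for TRPS1-WT and downward for TRPS1-MT, with height in tags at the summit, and black lines are gene bodies. The FOXL1 peaks reach 331 and 520 tags at the same place in both lists, while FOXC1 has 1 TRPS1-WT and 9 TRPS1-MT peaks, none above 26 tags.

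FOXD1, a gene of the kidney stroma, held 59 tags in TRPS1-WT at chr5:72744415-72744828 (fold 17.0, −log10 p 58.7) and 111 in TRPS1-MT at chr5:72744126-72744977 (fold 13.7, −log10 p 89.6), a ratio of 1.88 (1.36 to 2.63). FOXD2 held 22 and 36 tags at overlapping peaks, the latter at chr1:47903484-47903763 (fold 13.4, −log10 p 34.7), a ratio of 1.64 (0.937 to 2.92). FOXD3, a gene of the neural crest, had a promoter peak by midpoint in TRPS1-WT alone, with 11 tags at chr1:63786191-63786358 (fold 5.70, −log10 p 8.61). A TRPS1-MT peak of 17 tags had its summit at 932 bp, within the promoter, and its midpoint just outside. FOXD3 was among the genes richest in peaks, with 4 and 6 within 10 kb. Its density was above 95.4% of protein-coding genes in TRPS1-WT and above 96.5% in TRPS1-MT. FOXD4 had no peak within 10 kb in either list, alone among the 45. The annotation holds 6 FOXD4L genes that are close copies of it, so reads from FOXD4 could be placed at either, and what part this had was not tested.

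The 13 forkhead genes of other developmental roles had weak promoter peaks, and few had one in both lists. Both lists held one at 2 (FOXI2 and FOXL2, the ovary gene), TRPS1-WT alone at 1, TRPS1-MT alone at 5, and neither at 5. Of all protein-coding genes, 62.6% had one in both lists, 4.88% in TRPS1-WT alone, 13.8% in TRPS1-MT alone and 18.7% in neither. FOXE1, a thyroid gene, held 13 tags in TRPS1-WT at chr9:100614672-100614839 (fold 6.65, −log10 p 10.8). In TRPS1-MT alone, FOXB2 held 16 tags at chr9:79632910-79633189 (fold 6.14, −log10 p 11.1). FOXE3, a lens gene, held 23 tags at chr1:47881686-47881965 (fold 8.11, −log10 p 17.6). FOXH1, a partner of SMAD proteins in nodal signalling, held 20 tags (fold 7.59, −log10 p 15.2). The weakest was at FOXI3, with 10 tags at chr2:88752617-88752896 (fold 3.97, −log10 p 5.58), stronger than 0.379% of the TRPS1-MT list. FOXR2 held 24 tags at chrX:55649995-55650274 (fold 8.45, −log10 p 18.7). At FOXI2 and FOXL2 the peaks of the lists did not overlap and held 10 to 14 tags. No promoter peak of these 13 genes in either list held more than 24 tags.

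All 3 FOXJ genes and both FOXK genes had promoter peaks in both lists. FOXJ2, a widely expressed gene, had the lowest tag ratio of the family: 71 tags in TRPS1-WT at chr12:8185957-8186234 (fold 13.0, −log10 p 58.4) and 34 in TRPS1-MT at chr12:8185661-8186116 (fold 7.24, −log10 p 21.2). The ratio was 0.479 (0.308 to 0.730), and 2.33% of shared promoter peaks of protein-coding genes had a lower one. The summits lay apart, at 769 and 596 bp, and the TRPS1-MT peak also overlapped a TRPS1-WT peak of 28 tags at 334 bp. A further TRPS1-MT promoter peak of FOXJ2 held 40 tags at −536 bp. The strongest peak outside promoters in either list lay 5′ of the same gene and had more tags in TRPS1-MT, with 260 tags at −5954 bp in TRPS1-WT (chr12:8178994-8179939) and 422 at −5809 bp in TRPS1-MT (chr12:8179023-8180098). FOXJ1, the gene of motile cilia, held 17 and 11 tags at its TSS. FOXJ3 held 41 and 34 at places that did not overlap, while a weaker TRPS1-MT promoter peak of 23 tags overlapped the TRPS1-WT one. FOXK1, a widely expressed repressor, had the highest ratio: 22 tags in TRPS1-WT at chr7:4778522-4778744 (fold 7.19, −log10 p 15.4) and 53 in TRPS1-MT at chr7:4778241-4778892 (fold 7.26, −log10 p 30.4). That was 2.41 (1.44 to 4.16), and 84.4% of shared promoter peaks had a lower one. These FOXK1 peaks lay at an internal TSS, with summits 56691 and 56730 bp into the gene from the canonical one. FOXK2 had its strongest promoter peaks at different TSSs, with 24 tags in TRPS1-WT and 35 in TRPS1-MT. A weaker TRPS1-MT promoter peak of FOXK2, with 22 tags, overlapped the TRPS1-WT one. The strongest peak of TRPS1-WT alone in the family lay in an intron of FOXK2, with 85 tags at chr17:80487485-80487798.

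The peak upstream of FOXJ2 is shown because no other peak outside a promoter was as strong, with a GATA word in capitals (hg19 chr12:8179298-8179418). Below it are the summits of a FOXK1 intron peak in each list, which overlapped and held 63 tags in TRPS1-WT and 66 in TRPS1-MT. In each a forkhead word is in capitals, and in the second a GATA word as well (hg19 chr7:4784602-4784722 and chr7:4784466-4784586). All are on the plus strand.
FOXJ2 upstream peak, TRPS1-WT summit: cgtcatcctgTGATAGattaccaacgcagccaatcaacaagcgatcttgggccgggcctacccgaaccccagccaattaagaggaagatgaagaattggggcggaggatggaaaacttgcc
FOXK1 intron peak, TRPS1-WT summit: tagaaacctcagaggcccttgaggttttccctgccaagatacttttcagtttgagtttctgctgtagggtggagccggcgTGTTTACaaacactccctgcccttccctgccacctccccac
FOXK1 intron peak, TRPS1-MT summit: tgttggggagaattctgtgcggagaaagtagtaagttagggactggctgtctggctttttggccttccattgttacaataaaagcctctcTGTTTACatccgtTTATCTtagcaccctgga

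FOXM1, which drives the genes of mitosis, had overlapping promoter peaks in both lists. It held 34 tags in TRPS1-WT at chr12:2986956-2987167 (fold 10.3, −log10 p 27.8, −715 bp) and 24 in TRPS1-MT at chr12:2986630-2987173 (fold 8.69, −log10 p 19.1, −562 bp). The ratio was 0.706 (0.400 to 1.23), and 9.35% of shared promoter peaks had a lower one. The TSS of RHNO1 lies 25 bp away, so the promoters of the pair cannot be told apart. FOXM1 had the densest TRPS1-WT peaks of the family, 20.3 per 100 kb from 8 peaks, and 25.3 per 100 kb in TRPS1-MT from 10.

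FOXN2, FOXN3 and FOXN4 had overlapping promoter peaks in both lists, and FOXN1, the gene of thymus epithelium, had none. FOXN2 held 115 tags in TRPS1-WT at chr2:48541333-48541675 (fold 18.0, −log10 p 108) and 116 in TRPS1-MT at chr2:48541229-48541744 (fold 16.7, −log10 p 104), a ratio of 1.01 (0.773 to 1.32). Within 10 kb of the gene lay 4 peaks in TRPS1-WT and 14 in the longer TRPS1-MT list. That density was above 23.2% of protein-coding genes in TRPS1-WT and above 60.4% in TRPS1-MT. With the TRPS1-MT list cut to the length of the other, the counts were 4 and 7. FOXN3, a checkpoint gene, held 125 tags in TRPS1-WT at chr14:89652544-89653154 (fold 19.5, −log10 p 121) and 93 in TRPS1-MT at chr14:89652655-89653171 (fold 19.4, −log10 p 92.8). The peaks lay at an internal TSS, 230720 and 230664 bp into the gene from the canonical one, and the ratio was 0.744 (0.563 to 0.981), above that of 10.9% of shared promoter peaks. Its strongest peak outside promoters held 166 tags in TRPS1-WT (chr14:89892130-89893106) and 334 in TRPS1-MT (chr14:89891900-89892873). At the canonical TSS of FOXN3 a TRPS1-MT promoter peak of lower −log10 p (82.5) held 107 tags, with its summit at 776 bp. That peak overlapped a TRPS1-WT peak of 107 tags with its summit at 964 bp and its midpoint just outside the promoter. FOXN4, a gene of the retina, held 35 tags at chr12:109726055-109726485 (fold 10.6, −log10 p 28.9) and 48 at chr12:109726021-109726543 (fold 8.04, −log10 p 30.3), a ratio of 1.37 (0.869 to 2.18).

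The FOXN3 intron peak, which held 166 tags in TRPS1-WT, is shown for its AP-1 word, in capitals (hg19 chr14:89892435-89892555, plus strand).
FOXN3 intron peak, TRPS1-WT summit: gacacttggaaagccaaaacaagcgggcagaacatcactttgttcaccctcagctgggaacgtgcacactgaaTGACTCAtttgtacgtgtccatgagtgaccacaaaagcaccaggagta

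The 4 FOXO genes, which insulin and AKT signalling restrain, all had a TRPS1-WT promoter peak, and FOXO3 and FOXO6 also had one in TRPS1-MT by midpoint. FOXO3 held 59 tags in TRPS1-WT at chr6:108879631-108880082 (fold 8.13, −log10 p 36.3) and 109 in TRPS1-MT at chr6:108880065-108880486 (fold 5.38, −log10 p 44.8), a ratio of 1.85 (1.33 to 2.58). These strongest peaks met only at their edges, with summits at −2323 and −1823 bp. Matched by the nearest summit, the farther place held 59 tags in TRPS1-WT and 68 in TRPS1-MT, a ratio of 1.15 (0.801 to 1.66). The nearer place held 40 and 109, a ratio of 2.73 (1.88 to 4.02). A peak in its first stretch of gene body was stronger, with 160 tags at 3430 bp in TRPS1-WT and 316 at 3359 bp in TRPS1-MT. FOXO6 held 61 tags in TRPS1-WT at chr1:41826095-41826281 (fold 13.1, −log10 p 51.5) and 30 in TRPS1-MT, in peaks that did not overlap. The TRPS1-MT peak did overlap a second TRPS1-WT promoter peak of FOXO6, which held 49 tags. FOXO4 had the strongest peak among the forkhead genes with a promoter peak in 1 list only: 30 tags in TRPS1-WT at chrX:70315480-70315657 (fold 14.7, −log10 p 33.0), at −140 bp, stronger than 87.2% of that list. The nearest TRPS1-MT peak held 10 tags, at −2063 bp, just outside the promoter by midpoint. FOXO1 held 9 tags in TRPS1-WT at chr13:41137021-41137188 (fold 4.75, −log10 p 6.56), stronger than 2.09% of the list, at an internal TSS 103673 bp into the gene. A TRPS1-MT peak near the canonical TSS of FOXO1 held 20 tags. Its summit lay at −1951 bp, within the promoter, and its midpoint just outside.

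The FOXO4 summit is shown because FOXO4 led, by −log10 p, the genes with a promoter peak in 1 list only. It held no searched word and 12 CpG dinucleotides (hg19 chrX:70315501-70315621, plus strand).
FOXO4 promoter, TRPS1-WT summit: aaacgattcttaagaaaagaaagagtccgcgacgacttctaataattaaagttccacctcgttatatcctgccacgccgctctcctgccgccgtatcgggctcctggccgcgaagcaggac

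FOXP1 and FOXP2 are long genes with many annotated TSSs, so more of their length counted as promoter. FOXP1, a gene of B cells and other tissues with 67 TSSs, held at most 12 tags in a TRPS1-WT promoter peak (chr3:71248680-71248847, fold 6.18, −log10 p 9.68). In TRPS1-MT the strongest held 35 tags, at another TSS (chr3:71347924-71348405, fold 13.0, −log10 p 33.4). Its introns held stronger peaks: the strongest had 88 tags in TRPS1-WT and 154 in TRPS1-MT, 121754 and 121610 bp from the canonical TSS. FOXP2, a gene of speech circuits with 30 TSSs, held 31 tags in its strongest promoter peak of each list, and these did not overlap. A weaker TRPS1-WT promoter peak of FOXP2, with 23 tags, overlapped the strongest TRPS1-MT one. FOXP4 held 21 and 19 tags at different TSSs. FOXP3, the gene of regulatory T cells, had a promoter peak in TRPS1-MT alone, with 11 tags at chrX:49115317-49115596 (fold 4.34, −log10 p 6.42).

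An intron peak of FOXP1, shared by the lists with 40 tags in TRPS1-WT and 82 in TRPS1-MT, is shown because its TRPS1-WT summit holds a forkhead and an AP-1 word side by side, in capitals (hg19 chr3:71581986-71582106, plus strand). The TRPS1-MT summit of FOXN4 at its internal TSS, shown with it, holds the same pair and 3 GATA words (hg19 chr12:109726212-109726332, plus strand).
FOXP1 intron peak, TRPS1-WT summit: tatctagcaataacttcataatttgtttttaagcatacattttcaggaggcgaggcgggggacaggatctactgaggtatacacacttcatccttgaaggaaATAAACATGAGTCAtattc
FOXN4 internal promoter, TRPS1-MT summit: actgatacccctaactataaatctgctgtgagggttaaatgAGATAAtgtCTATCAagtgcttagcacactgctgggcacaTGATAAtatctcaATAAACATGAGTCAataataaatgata

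**Figure D3:**
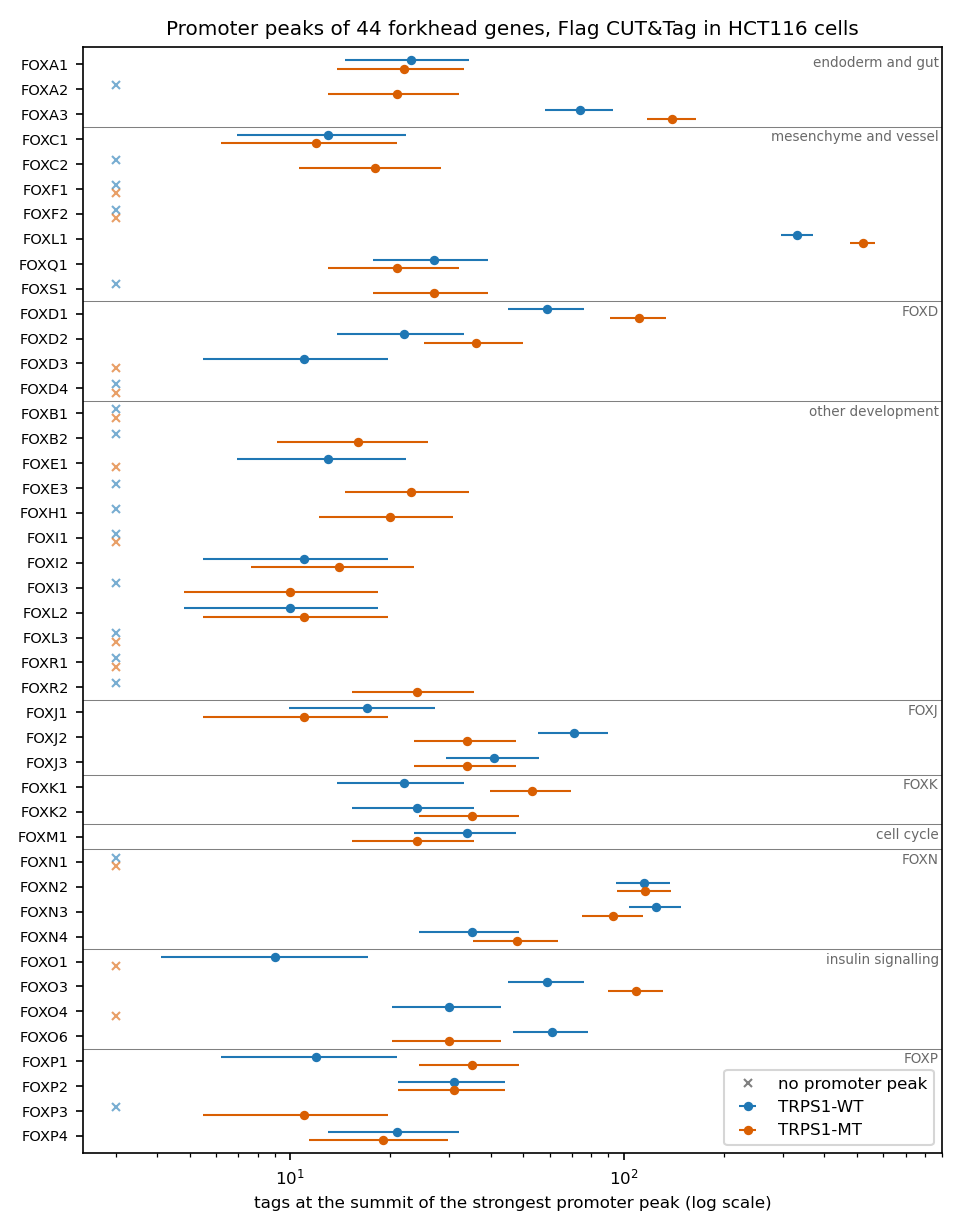
Tags at the summit of the strongest promoter peak of 44 of the forkhead genes in TRPS1-WT (blue) and TRPS1-MT (orange), on a log axis, grouped by role; bars are exact Poisson 95% intervals of counting error and crosses at the left mark genes with no promoter peak. FOXL1 stands apart at 331 and 520 tags, and the genes of other developmental roles hold at most 24.

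When the role groups were set against each other, promoter peaks in both lists were more frequent in the families FOXJ, FOXK, FOXM, FOXN, FOXO and FOXP than in the rest, a split made after the values were seen. Of those 18 genes, 14 had a promoter peak in both lists and 1 in neither. Of the other 27, 9 had one in both and 8 in neither. Of all protein-coding genes, which had a median of 5 TSSs, 62.6% had one in both and 18.7% in neither. The groups also differed in build: the 18 had a median of 4 TSSs and a length of 60.3 kb, and the 27 a median of 1 and 3.95 kb. With the canonical TSS alone, 11 of the 18 and 10 of the 27 had a TRPS1-WT promoter peak, and 12 and 15 a TRPS1-MT one. What part the number of TSSs had was not tested further.

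Of the 23 genes with a promoter peak in both lists, 19 had overlapping ones (82.6%, 62.9 to 93), beside 80.1% of all protein-coding genes with one in both. At 14 the strongest peaks of the lists overlapped (60.9%, 40.8 to 77.8), beside 63.7%. Both shares were close to those of all genes. Over these 14 the median tag ratio of TRPS1-MT to TRPS1-WT was 1.19, beside 1.41 over the shared promoter peaks of all protein-coding genes (quartiles 1 and 2). Tags of the lists are not on 1 scale, so each ratio was read against that median. It ranged from 0.479 at FOXJ2 to 2.41 at FOXK1. The intervals of FOXJ2, FOXM1, FOXN2 and FOXN3 ended below 1.41, and those of FOXA3 and FOXK1 began above it. The other 8 (FOXA1, FOXC1, FOXD1, FOXD2, FOXJ1, FOXL1, FOXN4 and FOXO3) had intervals that include it, and the FOXO3 ratio sets different places of its promoter side by side.

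The wider surroundings of the forkhead genes were also compared, in windows of the gene body and 10 kb on each side. At least 1 peak lay in the window of 43 of the 45 in TRPS1-WT (95.6%), beside 91.8% of protein-coding genes, and of 44 in TRPS1-MT (97.8%), beside 94.9%. The merged windows span 3.67 Mb and held 324 TRPS1-WT and 531 TRPS1-MT peaks. That was 8.83 per 100 kb in TRPS1-WT, beside 7.21 over the windows of all protein-coding genes, and 14.5 in TRPS1-MT, beside 13.1. Per gene the median was 9.09 and 16.1 per 100 kb, beside 8.29 and 14.9. There were 1.64 times as many TRPS1-MT as TRPS1-WT peaks, beside 1.82 over all gene windows and 1.88 over the whole lists. When the strongest 173304 peaks of each list were used, 324 TRPS1-WT and 294 TRPS1-MT peaks were left. That was 8.83 and 8.01 per 100 kb, beside 7.21 and 7.23 over the windows of all protein-coding genes.

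The numbers of peaks differed widely among the members. FOXP1 had the most, with 59 TRPS1-WT and 85 TRPS1-MT peaks. FOXP2 had 41 and 67, FOXN3 38 and 70, FOXJ3 22 and 30, and FOXO3 21 and 30. These 5 were the highest in each list, and FOXP1, FOXN3 and FOXP2 together held 42.6% of the TRPS1-WT and 41.8% of the TRPS1-MT peaks in 48.8% of the merged windows. TRPS1-MT peaks outnumbered those of TRPS1-WT at 38 genes, were fewer at FOXB2, FOXD2, FOXE1 and FOXR1, and equal at FOXA1, FOXD4 and FOXL3. FOXA1 had 4 in each list. More TRPS1-MT than TRPS1-WT peaks were thus present at 84.4% of the forkhead genes (71.2 to 92.3) and fewer at 8.89%, beside 80.6% and 7.82% of all protein-coding genes. When the TRPS1-MT list was cut to the length of the other, TRPS1-MT had more at 19 of the 45 (42.2%) and fewer at 17 (37.8%), beside 40.4% and 37.9% of all genes. The scatter of peaks per 100 kb shows FOXC1 as the densest in TRPS1-MT, at 37.5 with FOXL2 next at 30.5, and FOXM1, FOXD3 and FOXL2 as the densest in TRPS1-WT.

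**Figure D4:**
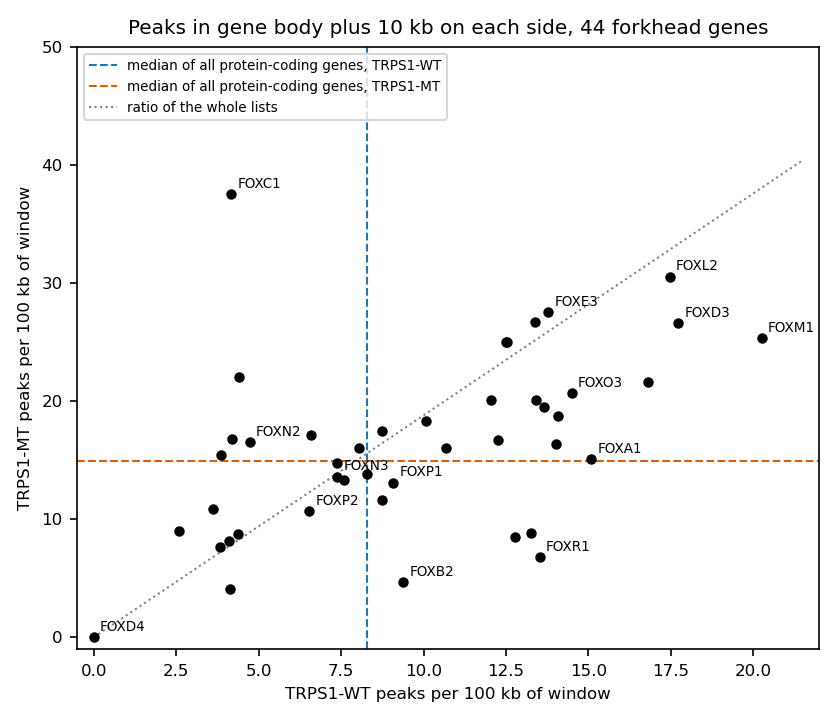
Peaks per 100 kb of window (gene body and 10 kb on each side) of 44 of the forkhead genes, TRPS1-WT on the horizontal and TRPS1-MT on the vertical axis, 1 point per gene with some named; dashed lines are the medians of all protein-coding genes (8.29 and 14.9) and the dotted line is the ratio of the whole lists (1.88). FOXC1 lies at 4.17 and 37.5, and FOXD4 at 0 in both.

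Most of these peaks lay in introns: 185 of 324 in TRPS1-WT (57.1%) and 320 of 531 in TRPS1-MT (60.3%). Flanks held 65 and 106, promoters of the member itself 56 and 67, exons 15 and 20, and promoters of other genes 3 and 18. Of the TRPS1-WT peaks, 96 overlapped a TRPS1-MT peak (29.6%, 24.9 to 34.8), beside 30.4% of the whole list and 33.6% of peaks in gene windows. Of the TRPS1-MT peaks, 94 overlapped a TRPS1-WT peak (17.7%, 14.7 to 21.2), beside 15.8% and 18%. Both intervals included the share of the whole list. Overlap was 41.1% (29.2 to 54.1) for TRPS1-WT peaks in the members' own promoters and 27.6% (21.6 to 34.4) for those in introns. In TRPS1-MT it was 34.3% (24.1 to 46.3) and 15% (11.5 to 19.3). Shares by place were not computed for the windows of all protein-coding genes. Whether the split by place is particular to forkhead loci was thus not tested.

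Short words were searched on both strands within 100 bp of each summit: for AP-1 the word TGACTCA and also the word TGAGTCA, for forkhead factors the word TGTTTAC and also the word TGTTTAT. For GATA factors the word was AGATAA, with the first base also T and the last base also G. The AP-1 words are each other's reverse complement, and no word of 1 kind is also of another. An AP-1 word was present at 25 of 324 TRPS1-WT summits of forkhead loci (7.72%, 5.28 to 11.1), against 2.93% of windows centred 1 kb away and 9.87% of all summits of the list. In TRPS1-MT it was present at 29 of 531 (5.46%, 3.83 to 7.73), against 2.45% and 5.74%. Peaks that the lists shared held it more often: 15 of 96 in TRPS1-WT (15.6%, 9.7 to 24.2) against 10 of 228 peaks of that list alone (4.39%, 2.4 to 7.88). In TRPS1-MT the shares were 12.8% (7.46 to 21) and 3.89% (2.44 to 6.14). Forkhead-locus peaks with −log10 p of at least 10 held it at 11.1% in TRPS1-WT and 6.5% in TRPS1-MT. The split into shared and unshared peaks was not made over the whole lists. Whether it is particular to forkhead loci, or goes with peak strength, was not tested.

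The forkhead word was no more frequent at summits of forkhead loci than beside them. It was present at 8.64% of TRPS1-WT summits (6.05 to 12.2) and 8.18% of windows 1 kb away, and at 7.34% (5.42 to 9.88) and 7.63% in TRPS1-MT. Over all peaks of the lists it was present at 8.01% and 8.14% of summits. A GATA word was present at 34.3% of TRPS1-WT summits (29.3 to 39.6), against 27.5% (24.2 to 31) 1 kb away, and at 34.1% of TRPS1-MT summits (30.2 to 38.2), against 29.4% (26.7 to 32.2). These intervals overlapped. Over all peaks of the lists the shares were 38.7% (38.4 to 38.9) and 38.1% (37.9 to 38.2) at summits. In windows 1 kb away from all peaks they were lower, at 34.3% (34.2 to 34.5) and 34.8% (34.7 to 34.9). A match of such a short word is a description of the letters and not a bound site.

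**Figure D5:**
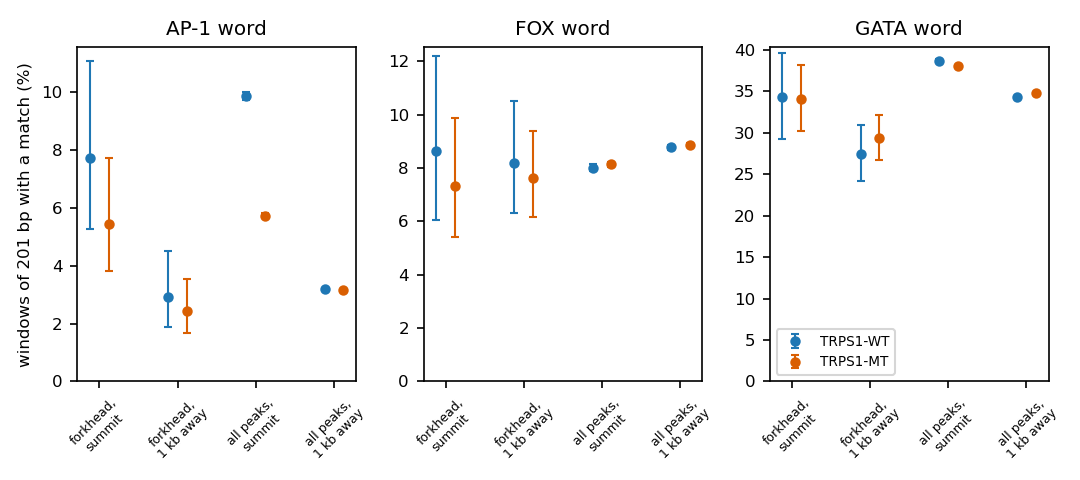
Percent of windows, 100 bp on each side of their centre, with an AP-1, forkhead (FOX) or GATA word, for peaks of forkhead loci and for all peaks, at the summit and 1 kb away, in TRPS1-WT (blue) and TRPS1-MT (orange); bars are 95% Wilson intervals of counting error. AP-1 words stand at 7.72% and 5.46% of forkhead summits against 2.93% and 2.45% 1 kb away, while forkhead words lie between 7.34% and 8.64% in all 4 forkhead sets.

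Genes around the forkhead factors were looked at in lists chosen for their known roles. Of 32 genes of the FOXO pathway (insulin and PI3K signalling upstream, and FOXO targets), 30 had a promoter peak in both lists, PDPK1 in TRPS1-MT alone and IRS1 in neither. CCNG2, a FOXO target, had the strongest, with 1784 tags in TRPS1-WT and 2371 in TRPS1-MT. PIK3CA, the catalytic subunit of PI3K, held 506 and 783, and SESN3, another FOXO target, 248 and 1035. Of 15 FOXM1 targets, 13 had one in both lists, LIN9 in TRPS1-WT alone and MYBL2 in TRPS1-MT alone. In TRPS1-WT the strongest by −log10 p were CENPA with 247 tags, CENPF with 164 and CDC20 with 185, all genes of mitosis. In TRPS1-MT they were NEK2 with 296, KIF20A with 280 and CENPA with 249. The shares of these genes with a promoter peak in both lists lie above the 62.6% of all protein-coding genes and the 51.1% of forkhead genes. Among all CpG-rich protein-coding genes that share was 78.3%. The further lists are short and picked by hand, and the CpG ratios and numbers of TSSs of their genes were not compared.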

How the data were processed

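Flag CUT&Tag was done in 1 TRPS1-WT and 1 TRPS1-MT library of HCT116 cells. Per the methods, the authors filtered the reads, used Bowtie 0.12.8 to place them on hg19, and ran MACS and HOMER on the alignments. The labels name hg19 and hg38, and no peak passed the end of a GRCh37 chromosome. Whether peaks were called against a control library was not stated in the sources used here. The methods name a MACS release before MACS2, while the layout of the files is that of MACS2. For each peak the deposited values are a score, a fold (the ratio of summit pileup to local background), −log10 p and −log10 q, and a distance to the summit, none scaled between libraries.

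Tags were recovered from fold and −log10 p under a Poisson background (tolerance 0.01; 3 and 2 peaks were not recovered), and this, the overlaps and the word search were tested on simulated data. Peaks were placed by midpoint with GENCODE release 44 on GRCh37. Read depth is unknown. Shares have Wilson intervals, tags exact Poisson intervals, and tag ratios exact conditional intervals. Members, role groups and lists were chosen with earlier results of these data known. Full values were given for FOXA1, FOXA2, FOXA3, FOXM1, the 10 strongest promoter peaks of each list, promoter peaks of 1 list only, the 5 members with most peaks and the strongest other peaks, and for the 3 strongest genes of each further list. The RefSeq promoter table, of another build, was not used. Some values and a sequence are not reported here. Tools were Python 3.11.15 with matplotlib 3.10.9, pysam 0.24.0, scipy 1.17.1, pandas 2.3.3 and numpy 2.4.6.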

Additional observations from a re-analysis of the deposited data

How the results depend on the processing

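Over 13 results, 56 alternative values were computed; 43 stayed within 1.5 times the reported count or density or within the interval of the reported share, and 13 moved. Counts of forkhead genes with a promoter peak stayed within that range under each setting tried, but the order of the lists turned: 27 TRPS1-WT and 32 TRPS1-MT became 27 and 25 with lists of equal length, and 25 and 24 with a promoter of 1 kb on each side. For genes with a promoter peak in both lists, the interval of the forkhead share ended below the share of all genes with equal lists (42.2%, beside 58.6%), with −log10 p of at least 10 (40%, beside 55.3%) and with the narrower promoter (42.2%, beside 57.6%). With the FOXD4L genes added it did so in TRPS1-WT (52.9%, beside 67.4%), in TRPS1-MT (62.7%, beside 76.4%) and in both lists (45.1%, beside 62.6%). With only peaks of −log10 p of at least 10, the windows held 5.42 TRPS1-WT and 8.8 TRPS1-MT peaks per 100 kb. With lists cut to equal length, TRPS1-MT had 8.01 per 100 kb, and the overlap was 24.4% of TRPS1-WT and 26.2% of TRPS1-MT peaks. Windows with 50 kb on each side held 7.73 and 13.8 per 100 kb. When an overlap had to reach 50% of the narrower peak, it was 24.1% and 14.7%. Within 50 bp of the summit, the AP-1, forkhead and GATA words were present at 3.4%, 4.63% and 20.1% of TRPS1-WT and at 2.82%, 3.95% and 18.6% of TRPS1-MT summits, in windows with fewer bases. The share of CpG-rich forkhead genes with a promoter peak was below that of CpG-rich genes under each setting. No paired analysis was possible because each condition had 1 library, and none could be left out.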

Other observations

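The 6 FOXD4L genes, outside the 45 by their symbols, had no peak within 10 kb in either list, as FOXD4 itself. The forkhead and AP-1 words seen side by side in the FOXP1 and FOXN4 peaks make the word ATAAACATGAGTCA of 14 bases, which was counted after it had been seen. It lay within 100 bp of the summit of 3 of 173304 TRPS1-WT peaks, of which 1 was the FOXP1 peak, and of 6 of 325573 TRPS1-MT peaks, of which 2 were those of FOXP1 and FOXN4. In windows 1 kb away it was present in 2 of 346608 for TRPS1-WT and in 6 of 651146 for TRPS1-MT.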
